A study of Mus musculus with 46 samples.

Results

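Pbrm1, Arid2, Brd7 and Phf10 encode the subunits that mark the PBAF form of the BAF-family chromatin remodelling complexes. Their transcripts were measured in 46 mouse synovial sarcomas, including tumours in which Pbrm1 itself was a target of Cre. The 4 genes were chosen by name, from known membership of the complex, out of 57067 genes listed over the 2 count tables of the study. All 4 were present in both tables and passed the filter on low counts in each.

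BAF-family complexes use the energy of ATP to move or evict nucleosomes. They come as the canonical form (CBAF), the form with BRD9 (GBAF) and PBAF, which share an ATPase and a set of core subunits and differ in a few others. PBRM1 carries a row of bromodomains that bind acetylated histone tails, ARID2 is a large DNA-binding scaffold that holds the PBAF-specific module together, BRD7 is a bromodomain protein, and PHF10 is a PHD-finger protein. In synovial sarcoma the fusion oncoprotein SS18::SSX replaces SS18, which is a subunit of CBAF and GBAF but not of PBAF, so that PBAF is the form without the fusion.

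Every tumour arose in a mouse carrying a human fusion cDNA, SS18::SSX2 (hSS2) or SS18::SSX1 (hSS1), at Rosa26 behind a stop cassette that Cre removes, and was started by injection of TATCre protein into the hindlimb of a mouse of mixed strain at 8 days of age. The mice were 2 to 6 months old when used. The controls, 13 hSS2 and 5 hSS1 tumours, were labelled as carrying the fusion alone. The other tumours also carried homozygous floxed alleles of Pbrm1 (8 hSS2 and 4 hSS1 Pbrm1-fl tumours), Arid1a (8 hSS2 Arid1a-fl tumours) or Arid1b (8 hSS2 Arid1b-fl tumours). By design the same injection of Cre turns on the fusion and recombines the floxed gene. Vessel, blood, immune and muscle cells that Cre did not reach keep their alleles, and in bulk tissue fewer cells of a type and less RNA per cell cannot be told apart.

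Each library held 10613976 to 21294657 counted reads in the hSS2 table and 10137668 to 14130024 in the hSS1 table, and the lowest count of any of the 4 genes in any library was 488. The tissue label was checked against 8 markers of synovial sarcoma, among them Tle1, Bcl2 and keratins, whose summed level ran from 423 to 1269 CPM (read counts relative to library size, scaled by the trimmed mean of M-values, TMM) over all tumours. A sum is carried by its highest genes. The mean log2 CPM of the 8 ran from 2.64 in hSS2 Pbrm1-fl replicate 8 to 6.31 in hSS1 control replicate 3. Krt19, a keratin, had a median under 1 CPM in Arid1a-fl tumours. Every library is a tumour, so no other tissue served as a reference. Admixture varied more widely, with summed skeletal muscle markers at 5.33 to 43148 CPM in hSS2 tumours. Each title opens with a number that the title does not explain, called the mouse number here. Cut at 1000 and at 2000, these numbers give a low, a middle and a high range, and each floxed hSS2 group lies in 1 range (Arid1a-fl low, Arid1b-fl middle, Pbrm1-fl high), while the hSS2 controls have 5, 4 and 4 tumours in them.

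Among the hSS2 tumours 2 went most clearly against their labels in the level of a targeted gene. The library labelled control replicate 9 had 238 CPM of Arid1a, 49.5% of the control mean, which lies inside the Arid1a-fl range of 229 to 276 CPM, while the other 12 controls had 422 to 587 CPM. The library labelled Arid1b-fl replicate 4 had 347 CPM of Arid1b, 99.4% of the control mean, and the other 7 Arid1b-fl tumours lay at 31.7% to 83.5%. Of these, replicates 2 and 7 (291 and 232 CPM) also lay inside the control range of 222 to 686 CPM. All of these libraries were kept in the groups their labels give. Without control replicate 9 the Pbrm1-fl differences from controls (log2) were −1.29 for Pbrm1, −0.29 for Arid2, 0.037 for Brd7 and −0.15 for Phf10, against −1.27, −0.26, 0.05 and −0.13 with it. The Arid1a-fl differences were 0.24 for Pbrm1 and 0.25 for Brd7 (adjusted p = 0.100 and 0.0795, edgeR), against 0.24 and 0.23 with it. Without Arid1b-fl replicate 4 the Arid1b-fl differences of the 4 genes were 0.11, −0.043, 0.0058 and 0.0076 for Pbrm1, Arid2, Brd7 and Phf10. No member gained or lost a call without either library.

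The floxed Pbrm1 allele loses exon 11 upon recombination, so the sequence removed sets what the gene-level count can see. In the GENCODE M21 annotation of GRCm38, 11 of the 13 coding transcripts of Pbrm1 have an eleventh exon, and these are 5 different stretches of 86 to 214 bases. The study does not say which transcript it numbered. The 2 candidates shown are the eleventh exon of the principal transcript, 96 bases at chr14:31045330-31045425, and the one that the largest number of coding transcripts (5) count as the eleventh, 214 bases at chr14:31050038-31050251, both on the plus strand and written 5′ to 3′ in lower case, with no part singled out.
Exon 11, principal transcript: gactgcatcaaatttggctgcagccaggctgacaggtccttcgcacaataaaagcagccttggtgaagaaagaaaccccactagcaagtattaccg
Exon 11, other transcripts: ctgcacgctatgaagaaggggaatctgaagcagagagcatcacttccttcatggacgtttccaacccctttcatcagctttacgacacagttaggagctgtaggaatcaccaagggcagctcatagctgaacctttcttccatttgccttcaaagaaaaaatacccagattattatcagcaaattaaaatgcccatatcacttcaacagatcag
The first is 1.09% and the second 2.42% of the 8846 bases of exon in the gene, and their lengths leave remainders of 0 and 1 on division by 3. Reads from the remaining exons of a recombined allele are still counted to Pbrm1. The Pbrm1 count therefore gives the amount of transcript with or without the deleted exon, and does not measure recombination.

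In hSS2 control tumours all 4 genes were expressed well above the median gene. Levels per length (TPM, in which each library sums to the same total, over the union of annotated exons) averaged 117 ± 19.9 for Pbrm1, 72.3 ± 16.9 for Arid2, 53 ± 5.94 for Phf10 and 49.8 ± 6.52 for Brd7 (SD, n = 13). These levels stood at the 93.3, 85.9, 78.6 and 76.9 percentile of the genes tested, in the same order. Pbrm1 was the highest of the 4 in 13 of 13 hSS2 controls, in all 16 Arid1a-fl and Arid1b-fl tumours and in 5 of 5 hSS1 controls. Arid2 came next in 11 of the 13 hSS2 controls. With the length of the longest transcript in place of the union of exons these counts in hSS2 controls were 12 and 9 of 13, with Arid2 highest in the remaining 1. In either case Brd7 and Phf10 did not differ beyond their spread. In hSS1 controls the TPM averages were 148 ± 16.8, 93.7 ± 9.15, 52.5 ± 10.5 and 56.5 ± 14.6 for Pbrm1, Arid2, Phf10 and Brd7 (SD, n = 5). They are given side by side only, since the backgrounds come in separate count tables.

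Pbrm1 fell in hSS2 Pbrm1-fl tumours, to 41.5% of its control mean, and none of the other 3 subunit genes was called in either direction. Pbrm1, on chromosome 14 (31019138 to 31121592, plus strand), was at 171 CPM in the lowest, 253 in the median and 316 in the highest hSS2 control. In the Pbrm1-fl tumours the lowest, median and highest levels were 95, 97.1 and 139 CPM. The groups did not overlap, and 6 of the 8 floxed tumours lay within 38.1% to 39.1% of the control mean. For how many of all genes the groups did not overlap was not counted. The fitted log2 fold change was −1.27 (SE 0.0879, 95% interval −1.45 to −1.09, adjusted p = 4.2e-12). Pbrm1 was the 1 member called of 4, in a comparison in which 7.35% of the 20083 genes tested were called.

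The genes beside Pbrm1 were not called. The nearest on either side were Glt8d1 (log2 fold change −0.01, adjusted p = 0.970) and Nt5dc2 (0.21, adjusted p = 0.720). The coding genes that overlap it on the opposite strand were Gnl3 (−0.28, adjusted p = 0.323) and Smim4 (0.22, adjusted p = 0.399). Gm49094 and Gm5459, processed pseudogenes inside Pbrm1, did not pass the filter on low counts. The median over 51 protein-coding genes within 5 Mb of Pbrm1 stayed within −0.10 to 0.01 of the table's median (log2) in the 8 Pbrm1-fl tumours.

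The highest residual level, 139 CPM or 55.5% of the control mean, belonged to Pbrm1-fl replicate 1. That tumour also had the highest summed macrophage (988 CPM), skeletal muscle (13776 CPM) and lymphocyte (61.2 CPM) markers of the 8. In contrast, replicates 7 and 8, with 45.6 and 70.2 CPM of summed macrophage markers and 21.7 and 9.84 CPM of muscle markers, retained 38.1% and 38.7% of the control mean. Replicate 6 did not follow this order, with 617 CPM of macrophage and 12657 CPM of muscle markers and 38.6% of the control mean. Over the 8 tumours Pbrm1 correlated with the macrophage score at r = 0.64 (Spearman 0.69), with an exact permutation p of 0.0577 (0.0866 adjusted over 3 scores, Spearman p = 0.0694, adjusted 0.208). The value for the muscle score was r = 0.61 (Spearman 0.24, exact p = 0.0571 and 0.582, adjusted 0.0866 and 0.873), and for the endothelial score −0.02 (Spearman 0.05, exact p = 0.965 and 0.935, adjusted alike). None passed the threshold. Without the 2 tumours farthest from the median of each score the 3 coefficients were 0.70, 0.85 and −0.21. The tumours left out were replicates 7 and 8 for the macrophage and 1 and 6 for the muscle score. Replicate 1, with the highest Pbrm1, thus stayed in the first of these. In the other hSS2 groups the macrophage coefficient was negative, at −0.27 in control, −0.61 in Arid1a-fl and −0.82 in Arid1b-fl tumours, and was not tested there.

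With the other floxed groups as the reference Pbrm1 showed the same separation. Its log2 fold change in Pbrm1-fl was −1.51 (SE 0.0952, adjusted p = 2.63e-13) against Arid1a-fl tumours, where 12.3% of genes were called, and −1.38 (SE 0.0949, adjusted p = 3.18e-12) against Arid1b-fl tumours, where 4.37% were called. The 3 comparisons share the Pbrm1-fl tumours. In each, Pbrm1 was the only member called, and for the 3 the call held under every alternative fit and without any single library.

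**Figure D1:**
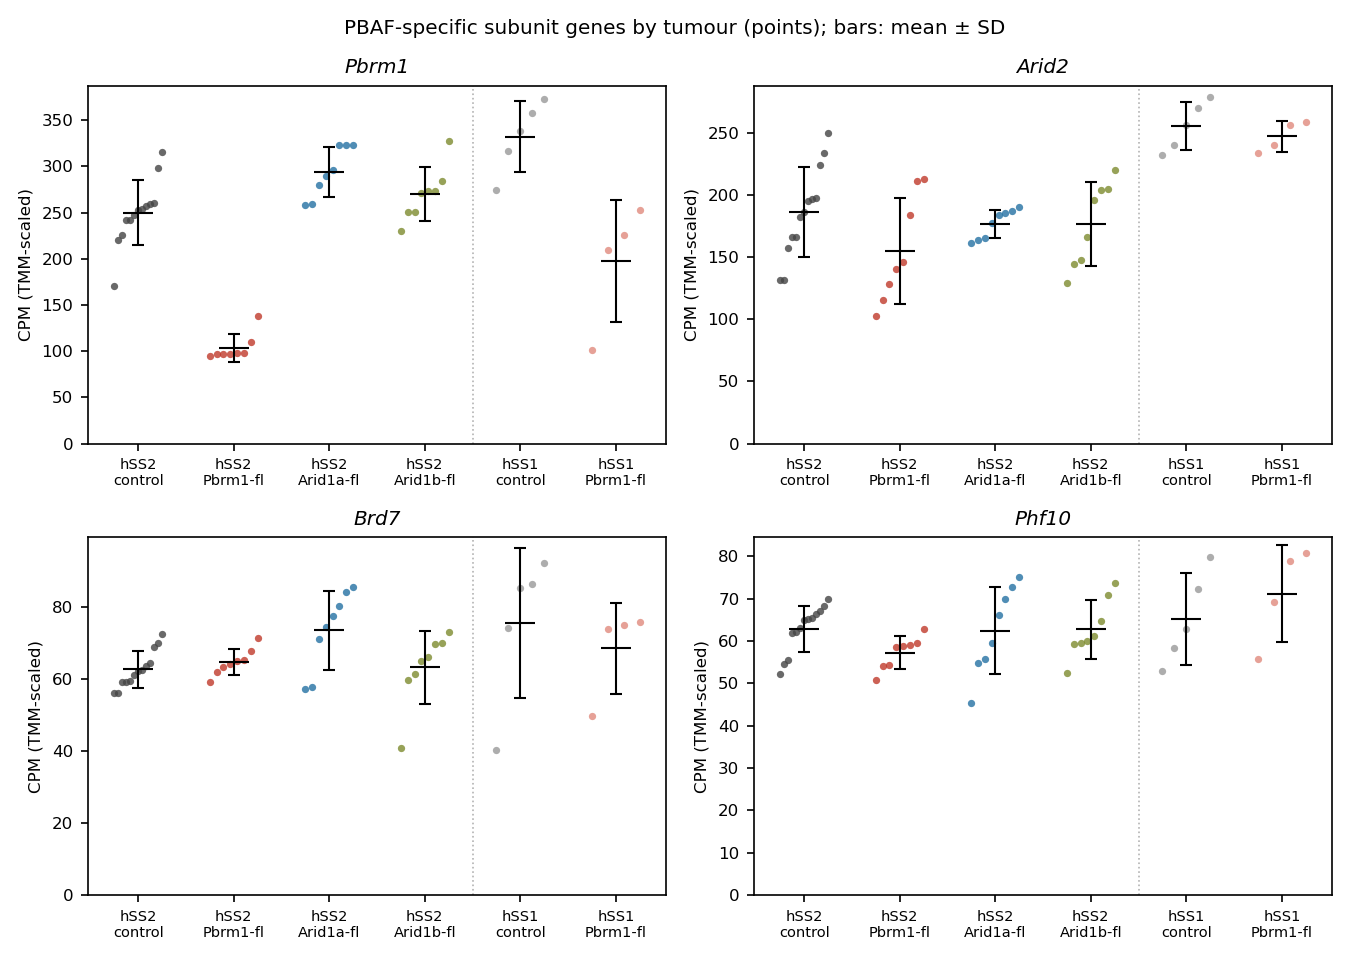
CPM (y axis, linear from 0) of Pbrm1, Arid2, Brd7 and Phf10 in each of the 46 tumours (points) in the 6 groups (x axis), with mean ± SD as bars and a dotted line between the hSS2 and hSS1 tables. Pbrm1 in the 8 hSS2 Pbrm1-fl tumours sits at 95 to 139 CPM, below all 13 controls, while the other 3 genes overlap their controls in every floxed group.

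In hSS1 tumours the Pbrm1 level was lower in every floxed tumour than in every control, with a wider spread. The 5 hSS1 controls were at 316, 275, 338, 358 and 373 CPM. The 4 Pbrm1-fl tumours were at 209, 252, 102 and 226 CPM. Replicate 3 stood at 30.6% of the control mean and the other 3 at 63.0% to 76.0%. The log2 fold change of −0.75 (SE 0.245, 95% interval −1.30 to −0.20) had an unadjusted p of 0.0130 in edgeR and did not pass the threshold (adjusted p = 0.193). An unadjusted p under 0.05 held for 17.2% of all genes in this comparison. The share of all genes whose groups did not overlap was not counted. No member was called, against 0.00562% of 17786 genes (1 gene) called in all. An adjusted p under 0.05 was not reached with DESeq2 either (0.0598), although that tool called 1184 genes here.

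Among the hSS1 Pbrm1-fl tumours, replicate 3 had the highest summed macrophage level of the 4 (231 CPM against 90.7 to 143) and the lowest muscle level (7.85 CPM against 12.2 to 81.9). The difference between backgrounds, the hSS1 effect minus the hSS2 effect, was 0.51 for Pbrm1 (SE 0.190, 95% interval 0.13 to 0.89, unadjusted p = 0.00981, adjusted p = 0.125). No member passed this test, in which 2.86% of 21725 genes were called and 18.9% had an unadjusted p under 0.05. Without hSS1 Pbrm1-fl replicate 3 the difference was 0.74 and passed (adjusted p = 0.0105), so that tumour decided the call. In that tumour Brd7 and Phf10 were also the lowest of their group, at 49.8 and 55.7 CPM.

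Arid2, the scaffold of the PBAF-specific module (chromosome 15, 96287518 to 96404992, plus strand), was not higher where Pbrm1 was floxed. The lowest, median and highest hSS2 controls were at 131, 186 and 250 CPM, and the Pbrm1-fl tumours at 103, 143 and 213 CPM. The groups overlapped, but 3 of the 8 floxed tumours lay below all controls. An unadjusted p under 0.05 held for 22.4% of all genes in this comparison. The log2 fold change was −0.26 (SE 0.128, 95% interval −0.52 to −0.0036, unadjusted p = 0.0471, adjusted p = 0.216, edgeR). This interval is not adjusted over genes and its upper limit was close to no change, so a small rise is not excluded. Without each library the value ran from −0.35 to −0.21. With the skeletal muscle score as a covariate the value was −0.35 and passed (adjusted p = 0.0461), whereas against controls of the same mouse number range it was −0.24 (adjusted p = 0.574).

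In hSS1 the 5 controls had 256, 270, 279, 232 and 240 CPM of Arid2 and the 4 Pbrm1-fl tumours 234, 257, 258 and 240 CPM. The ranges were nearly the same, with a log2 fold change of −0.05 (95% interval −0.28 to 0.18, adjusted p = 0.842). In Arid1a-fl and Arid1b-fl tumours Arid2 differed from controls by −0.08 in each (adjusted p = 0.746 and 0.969). Arid1a-fl tumours were the most even hSS2 group, at 161 to 190 CPM, with a coefficient of variation of 6.54% against 27.4% in Pbrm1-fl and 19.4% in control tumours.

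Brd7 (chromosome 8, 88331039 to 88362194, minus strand), a bromodomain subunit, was close to its control level in hSS2 Pbrm1-fl tumours. Controls ranged from 56.1 through a median of 62.3 to 72.6 CPM, and Pbrm1-fl tumours from 59.1 through 64.7 to 71.4 CPM. The log2 fold change was 0.05 (SE 0.0808, 95% interval −0.12 to 0.21, adjusted p = 0.778, edgeR). The upper limit of this interval, not adjusted over genes, was a 1.16-fold rise. The hSS1 controls had 85.4, 74.1, 86.6, 40.2 and 92.2 CPM and the hSS1 Pbrm1-fl tumours 75.0, 75.8, 49.8 and 73.9 CPM. In both hSS1 groups a single tumour lay far below the others, and the difference of −0.14 (95% interval −0.70 to 0.41, adjusted p = 0.805) carried a wide interval.

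Brd7 and Pbrm1 had their highest hSS2 averages in Arid1a-fl tumours. Brd7 was at 57.2, 76.1 and 85.8 CPM in the lowest, median and highest Arid1a-fl tumour, with 5 of 8 above every control, and its log2 fold change was 0.23 (SE 0.0804, unadjusted p = 0.00707, adjusted p = 0.0900). Pbrm1 was at 258, 293 and 323 CPM, with 8 of 8 above the control median and 3 above every control, and its log2 fold change was 0.24 (SE 0.0832, unadjusted p = 0.00741, adjusted p = 0.0917). Neither was called, in a comparison with 3.17% of genes called and 23.0% with an unadjusted p under 0.05. Both had an adjusted p of 0.0482 with DESeq2, the tool of the study. Over all the other settings the Brd7 difference ran from 0.17 to 0.27 with an adjusted p of up to 0.316 (proliferation covariate), and that of Pbrm1 from 0.18 to 0.28 with up to 0.282 (controls of the same mouse number range). The call for Brd7 also appeared without Arid1a-fl replicate 3 or 6 or without Arid1b-fl replicate 6, and that for Pbrm1 without control replicate 10. Against Arid1b-fl tumours, where 0.0996% of genes were called, the Brd7 difference was 0.22 (unadjusted p = 0.0207, adjusted p = 0.325). There 12.5% of all genes had an unadjusted p under 0.05.

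Phf10 (chromosome 17, 14945009 to 14961273, minus strand), the PHD-finger subunit, was not called in any comparison. The hSS2 controls had 52.2, 65.0 and 69.9 CPM at the lowest, median and highest, and the Pbrm1-fl tumours 50.7, 58.7 and 62.8 CPM. All 8 Pbrm1-fl tumours lay below the control median, though within the range of the controls but for 1. The log2 fold change was −0.13 (SE 0.0762, 95% interval −0.29 to 0.02, adjusted p = 0.302, edgeR). The upper limit of this interval, not adjusted over genes, was a 1.01-fold rise. The 5 hSS1 controls were at 62.8, 58.3, 72.3, 79.9 and 53 CPM and the 4 hSS1 Pbrm1-fl tumours at 80.7, 78.9, 55.7 and 69.1 CPM. These overlapped, with a difference of 0.12 (95% interval −0.24 to 0.49, adjusted p = 0.733). Reads of 1600012H06Rik, which overlaps Phf10 on the opposite strand, are kept apart only if strand was used in counting, which is not stated. The same holds for Pbrm1 and the genes that overlap it on the opposite strand.

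In Arid1b-fl tumours the 4 genes lay near their control levels. The log2 fold changes were 0.11 for Pbrm1 (95% interval −0.05 to 0.28), −0.08 for Arid2 (−0.33 to 0.18), 0.01 for Brd7 (−0.15 to 0.18) and −0.0027 for Phf10 (−0.16 to 0.15). No member was called by edgeR or DESeq2 (0 with an unadjusted p under 0.05 in edgeR), and 0.0548% of all genes were.

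**Figure D2:**
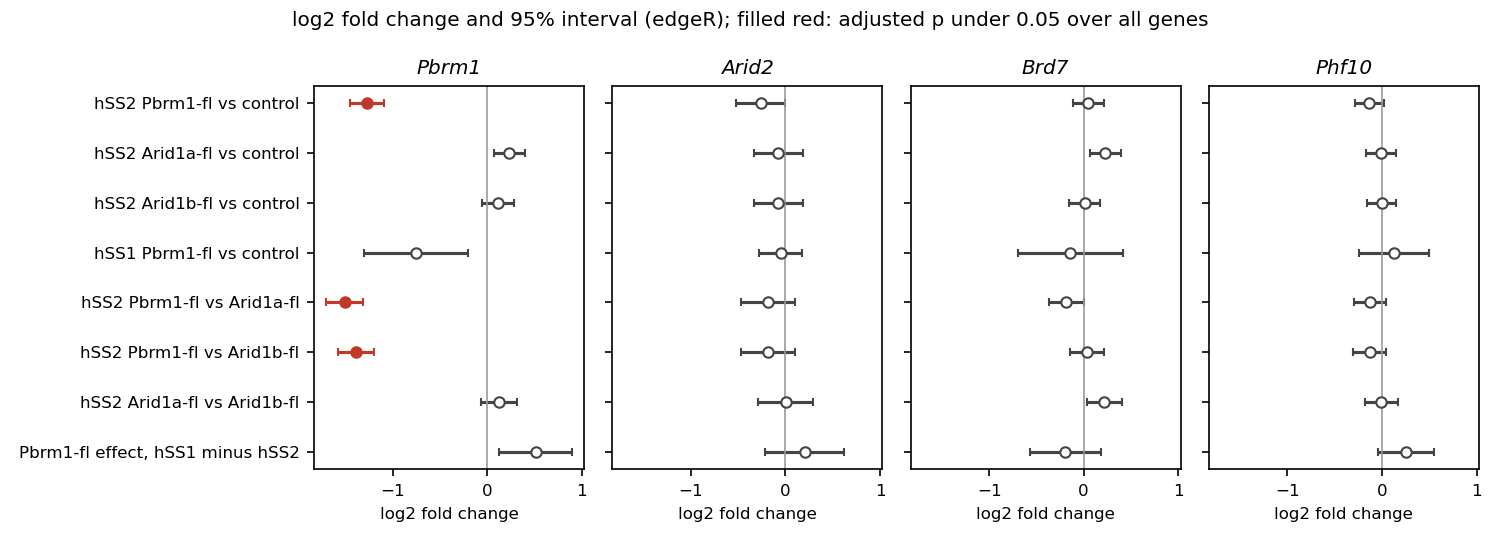
Log2 fold change (x axis) with 95% interval of the 4 genes in the 7 pairwise comparisons and in the difference of the Pbrm1-fl effect between backgrounds (y axis), from edgeR. Filled red marks, all of them Pbrm1 in hSS2 Pbrm1-fl tumours (−1.27, −1.51 and −1.38), have an adjusted p under 0.05 over all genes tested.

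The members were set beside 25 other genes of the BAF family, of which 24 were tested within each table (Actl6b was filtered). In hSS2 Pbrm1-fl tumours against controls 1 of the 24 was called higher and none lower, with 7.35% of all genes called. A further measure, an unadjusted p under 0.05, held for 2 of the 24 and for 22.4% of all genes. It was Smarca4, the ATPase that PBAF shares with the other forms, at 0.47 (SE 0.118, adjusted p = 0.0126). Smarca4 lost the call without Pbrm1-fl replicate 3 and against controls of the same mouse number range (0.46, adjusted p = 0.138). The median log2 fold change was −0.20 over the 4 members, 0.08 over the 24 others and −0.0042 over all genes. Of the 24, 18 had positive values, and of the 4 members only Brd7. The share of positive values over all genes was not counted. The members include Pbrm1, the floxed gene, while Arid2 and Phf10 were at −0.26 and −0.13.

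In hSS1 Pbrm1-fl tumours edgeR called no BAF-family gene (4 of the other 24 had an unadjusted p under 0.05, as had 17.2% of all genes, and DESeq2 called 0), with medians of −0.09 over the members, −0.09 over the other 24 and 0.01 over all genes. In Arid1a-fl tumours the targeted gene Arid1a, the DNA-binding subunit of CBAF, fell (−0.95, adjusted p = 7.01e-05), and the core subunits Actl6a (0.44, adjusted p = 0.0467) and Smarcd2 (0.43, adjusted p = 0.0453) were the 2 called higher. An unadjusted p under 0.05 was found for 10 of the 24 (8 higher and 2 lower) and for 23.0% of all genes. Actl6a and Smarcd2 lost their call in 5 of 8 other settings each and in 18 and 14 of 37 fits without 1 library. One of these was the fit without control replicate 9 (adjusted p = 0.0502 and 0.0564), in which the genes called over the whole table went from 637 to 388 and Arid1a stood at −1.003. In Arid1b-fl tumours edgeR called none of the 24 (3 had an unadjusted p under 0.05, as had 6.22% of all genes, and DESeq2 called 1), and the targeted Arid1b itself had −0.80 (adjusted p = 0.145). Without Arid1b-fl replicate 4 Arid1b was at −0.96 and was called (adjusted p = 0.0150). Between Pbrm1-fl and Arid1a-fl tumours Arid1a (1.10) and Ss18l1, the paralog of SS18 (0.47, adjusted p = 0.0109), were called higher, and between Pbrm1-fl and Arid1b-fl tumours Arid1b was (0.72, adjusted p = 0.0310). Between Arid1a-fl and Arid1b-fl tumours Arid1a was called lower (−0.99). With each floxed group set against the controls of its own mouse number range, Ss18l1 (0.22, adjusted p = 0.579), Arid1b (0.38, adjusted p = 0.797) and the last difference (−0.61, adjusted p = 0.277) lost their call, and that for Arid1b was also lost in 7 of 37 fits without 1 library. The effect of Pbrm1-fl differed between backgrounds for 1 of 25, the core subunit Bcl7a (−1.003, adjusted p = 0.0446), a call kept in 4 of 8 other settings and lost in 15 of 30 fits without 1 library, that without hSS2 control replicate 9 among them (−0.98, adjusted p = 0.0508).

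**Figure D3:**
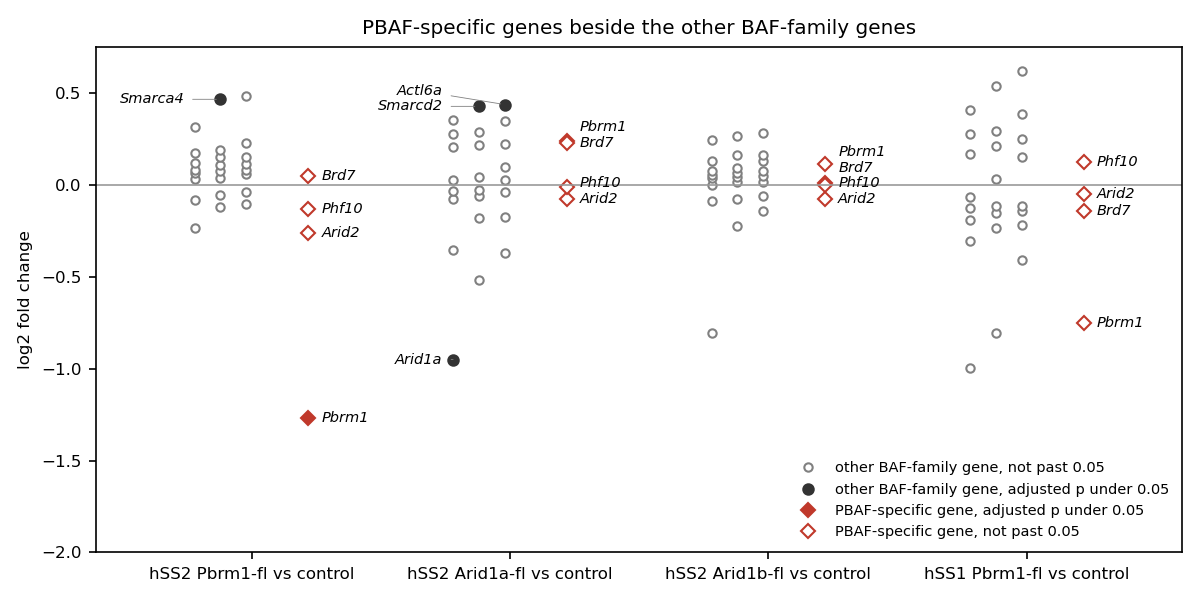
Log2 fold change against controls (y axis) in the 4 floxed groups (x axis) of the 4 PBAF-specific genes (red diamonds) and the other BAF-family genes tested (circles), filled where the adjusted p was under 0.05. Pbrm1 at −1.27 in hSS2 Pbrm1-fl lies below every circle, and the other red diamonds lie among the circles.

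Each PBAF-specific gene but Pbrm1 has a counterpart that holds the corresponding place in another form of the complex, and the ratio within a library does not depend on how libraries are scaled. Ratios were taken per length. Arid2 stood at 0.184, 0.238 and 0.390 of the summed Arid1a and Arid1b in the lowest, median and highest hSS2 control, and at 0.158, 0.196 and 0.242 in Pbrm1-fl tumours. The highest control value is that of replicate 9, in which Arid1a, part of the denominator, was low. The Pbrm1-fl mean was lower by −0.35 on the log2 scale, with 7 of 8 below the control median, and the exact permutation test gave p = 0.0138, or 0.0688 adjusted over the 10 ratio tests. The adjusted value was under the threshold without Pbrm1-fl replicate 8 (0.0401) and without control replicate 4 or 5 (0.0390 each). Without control replicate 9 the difference was −0.29 (0.0926) and against controls of the same range −0.19 (0.552). In these and the later ratio alternatives only the test named was redone. The rest of the 10 tests kept their p from all libraries in the adjustment, so these adjusted values are approximate. In hSS1 the 5 controls had ratios of 0.325, 0.309, 0.253, 0.278 and 0.308 and the 4 Pbrm1-fl tumours 0.281, 0.320, 0.271 and 0.277, without a difference beyond their spread (−0.03, exact p = 0.714, adjusted 0.791).

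Brd7 to Brd9, the GBAF bromodomain protein, was 1.23, 1.47 and 1.93 in hSS2 controls and 1.29, 2.05 and 2.22 in Arid1a-fl tumours. The Arid1a-fl mean was higher by 0.29 (log2), in 7 of 8 tumours above the control median (exact permutation p = 0.0078, adjusted 0.0688). Without Arid1a-fl replicate 6 the difference was 0.37 (adjusted p = 0.00387), and it also passed without Arid1a-fl replicate 3 (0.33, adjusted p = 0.0479) or control replicate 11 (0.32, adjusted p = 0.0353). Against controls of the same range it was 0.31 (adjusted p = 0.369). In hSS2 Pbrm1-fl tumours the ratio of Brd7 to Brd9 was 1.26, 1.45 and 1.66, a difference of −0.07 (exact p = 0.331, adjusted 0.662), and in Arid1b-fl tumours the difference was 0.08 (exact p = 0.490, adjusted 0.791). In hSS1 the 5 controls had 1.78, 2.08, 2.13, 0.770 and 2.29 and the 4 Pbrm1-fl tumours 1.86, 1.82, 1.06 and 1.52, with a difference of −0.15 (exact p = 0.683, adjusted 0.791).

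Phf10 to Dpf2, the CBAF PHD-finger protein, was 0.551, 0.971 and 1.35 in hSS2 controls and 0.730, 0.808 and 1.00 in Pbrm1-fl tumours, a mean difference of −0.17 (exact p = 0.166, adjusted 0.552). Against controls of the same mouse number range it was −0.38 (adjusted p = 0.0458), and without control replicate 12 it was −0.24 (adjusted p = 0.0474). Neither Arid1a-fl (−0.07, exact p = 0.594) nor Arid1b-fl (−0.03, exact p = 0.791) tumours differed detectably in this ratio (adjusted p = 0.791 for each). In hSS1 the 5 controls had 0.810, 0.701, 0.830, 1.19 and 0.723 and the 4 Pbrm1-fl tumours 1.25, 1.23, 0.705 and 0.876, overlapping values that differed by 0.24 on average (exact p = 0.278, adjusted 0.662).

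Within PBAF, the ratios of Pbrm1 to its partners have Pbrm1 as their numerator, and are given as a description. Per length, Pbrm1 was 1.05, 1.64 and 2.30 times Arid2 in the lowest, median and highest hSS2 control, and 0.550, 0.820 and 1.46 times Arid2 in hSS2 Pbrm1-fl. The corresponding values over Brd7 were 1.65, 2.40 and 2.75 in controls and 0.801, 0.889 and 1.29 in Pbrm1-fl, and these groups did not overlap. Over Phf10 they were 1.45, 2.16 and 2.77 in controls and 0.909, 0.946 and 1.52 in Pbrm1-fl, which overlapped. Pbrm1 had the lowest level per length of the 4 genes in 6 of 8 hSS2 Pbrm1-fl tumours and in none of the hSS1 Pbrm1-fl tumours. With the longest transcript these counts were 6 of 8 and 1 of 4.

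**Figure D4:**
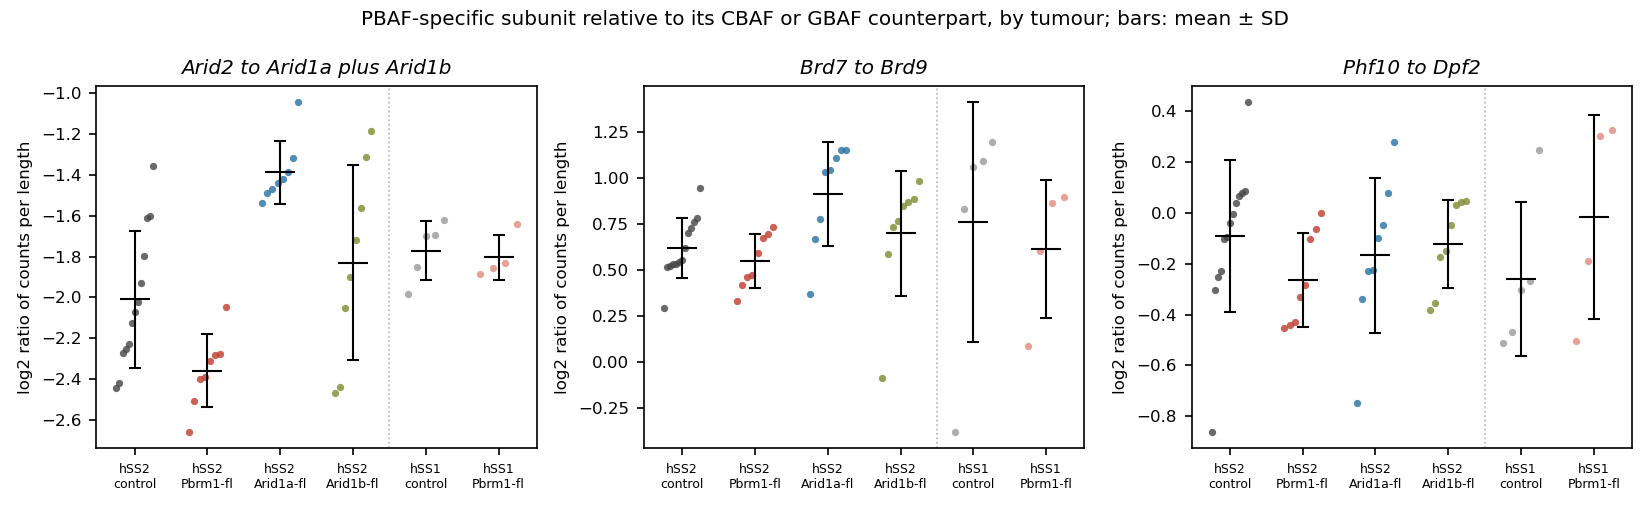
Log2 ratio of counts per length (y axis) of Arid2 to Arid1a plus Arid1b, Brd7 to Brd9 and Phf10 to Dpf2 in each tumour (points) by group (x axis), with mean ± SD as bars. Arid2 relative to the summed Arid1 genes averages −2.36 in hSS2 Pbrm1-fl and −2.01 in hSS2 controls. The values near −1.39 in Arid1a-fl include the loss of the targeted Arid1a from the denominator and were not tested.

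No pair of the 4 genes passed a test of correlation from tumour to tumour. After centring on the group mean, the 6 pairs had Pearson coefficients of −0.11 to 0.18 over the 37 hSS2 libraries, and none passed the permutation test (adjusted p of 0.654 or more). The strongest rank correlation was between Pbrm1 and Brd7 (Spearman 0.37, permutation p = 0.0277, adjusted 0.166, Pearson 0.16). Within the mouse number ranges their Pearson coefficient was 0.80 in the low, −0.35 in the middle and −0.12 in the high range. Other pairs also reached higher values within a range, such as 0.60 for Pbrm1 and Phf10 in the middle and 0.61 for Arid2 and Brd7 in the high range. Over the 9 hSS1 libraries the 6 pairs ran from −0.39 to 0.62, and none passed. Pbrm1 and Arid2 had r = −0.11, which became 0.02 without the 2 libraries farthest from the median.

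The genes most like Arid2 over the 37 centred hSS2 libraries were Kdm4b (r = 0.87), a histone demethylase, Zfp326 (0.86), Ash2l (0.80), a subunit of histone H3 lysine 4 methyltransferases, Asb7 (0.80) and Safb (0.80). In the 9 hSS1 libraries these genes gave only 0.10, −0.06, 0.11, 0.56 and 0.09. For Pbrm1 the leading genes were weaker, from As3mt (0.56) and Zzz3 (0.53) to Gm10800 (0.52), Serpinf1 (0.51) and Mplkip (0.51), with 0.84 and 0.57 for As3mt and Zzz3 and 0.23 and −0.28 for the last 2 in the hSS1 libraries. For Phf10 they were Twsg1 (0.66), Btbd11 (0.66), Sv2c (0.64), Wnt5b (0.63) and Usp49 (0.63), with 0.32, 0.02, 0.11, 0.88 and 0.70 in hSS1. These coefficients are descriptions over tumours that share libraries and scaling.

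Arid2 moved with some marker scores of other cell types over the pooled hSS2 tumours, and the other 3 genes passed no such test. Over the 37 centred hSS2 libraries Arid2 correlated negatively with the scores of adipocyte (r = −0.68, Spearman −0.65), macrophage (−0.67, −0.65), lymphocyte (−0.67, −0.65) and skeletal muscle markers (−0.55, −0.52). Adjusted over 32 pairs, the permutation p-values for r were 0.00128, 0.00128, 9.6e-04 and 0.00816, and those for rho 0.00267, 0.00256, 0.00256 and 0.0185. Without the 2 libraries farthest from the median of each score r was −0.61, −0.72, −0.63 and −0.55. In each of the 3 mouse number ranges all 4 coefficients were negative, from −0.40 to −0.86. Within groups, which was not tested, the macrophage coefficient of Arid2 was uneven. It was −0.83 in control, −0.86 in Pbrm1-fl, −0.32 in Arid1b-fl and −0.31 in Arid1a-fl tumours. That for muscle ran from −0.68 to −0.46. Of the 8 lymphocyte markers 7 had a median under 1 CPM in every group, as had 2 to 6 of the 6 adipocyte markers, so these scores rest on few reads. None of the other 28 pairs of gene and score passed. These include Arid2 with the endothelial (0.21), erythroid (0.09) and synovial sarcoma scores (−0.15). For Pbrm1 and the macrophage score the pooled r of −0.12 mixed opposite signs. Within groups, which was not tested, it was −0.27 in control, −0.61 in Arid1a-fl and −0.82 in Arid1b-fl tumours. In Pbrm1-fl tumours it was 0.64. Summed macrophage markers were at 45.6 to 988 CPM in Pbrm1-fl and at 90.3 to 717 CPM in control hSS2 tumours. Summed muscle markers had a median of 181 CPM in Pbrm1-fl and of 3198 CPM in control tumours, and the mean score of the 8 synovial sarcoma markers (log2) was 3.89 in Pbrm1-fl and 4.63 in control tumours. The part of these differences in that of Arid2 was not tested beyond the muscle covariate.

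Brd7 stood out in another way. Of the 5 genes most like it, Ctcf (r = 0.79), Sf3b3 (0.78), Nutf2 (0.76) and Cnot1 (0.74) lie on chromosome 8, as Brd7 does, and Nfyc (0.74) on chromosome 4. In the hSS1 libraries their coefficients were 0.81, 0.29, 0.74, 0.87 and 0.29. The expression of the genes around Brd7 was therefore followed along the chromosome, a step chosen after these values were seen. In hSS2 Arid1b-fl replicate 6, the tumour with the lowest hSS2 level of Brd7 (40.9 CPM), the median of 65 protein-coding genes within 5 Mb was 67.0% of the table's median. In hSS1 control replicate 4, with the lowest hSS1 level (40.2 CPM), the corresponding value over 66 genes was 60.6%. In no other library did it fall below 84.9%.

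The low stretch was long and had edges in both tumours. In bins of 5 Mb from the Brd7 start site, the medians in Arid1b-fl replicate 6 were 0.02 at −10 to −5 Mb, −0.52 at −5 to 0, −0.88 at 0 to 5, −0.84 at 5 to 10, −0.73 at 15 to 20, −0.78 at 20 to 25 and 0.24 at 30 to 35 Mb (log2 against the table's median). A bin at −85 to −80 Mb in that tumour was also low (−0.65). In hSS1 control replicate 4 they were 0.00 at −20 to −15, −1.002 at −10 to −5, −0.69 at −5 to 0, −1.04 at 0 to 5, −0.71 at 5 to 10, −0.77 at 15 to 20 and 0.00 at 20 to 25 Mb. The bin at 0 to 5 Mb held 12 genes. The numbers of DNA copies were not measured in these data. That bin also dipped in other libraries, the next lowest being −0.53 in an hSS2 Arid1a-fl tumour. It was at −0.44 in hSS1 Pbrm1-fl replicate 3 (49.8 CPM of Brd7), where the bins beside it were at 0.18 and 0.19 and the median of all 66 genes was 111% of the table's median.

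Over the 37 hSS2 libraries Brd7 correlated with its neighbourhood at r = 0.77 (Spearman 0.57), and at 0.55 without Arid1b-fl replicate 6 and control replicate 13, the 2 farthest. Within ranges r was 0.84, 0.86 and 0.45. The coefficient for Arid2 was 0.44 (Spearman 0.47), and 0.61 without the 2 farthest libraries, although in the ranges it was 0.12, 0.22 and 0.67. For Pbrm1 it was 0.32 (Spearman 0.40) and for Phf10 0.16 (Spearman 0.10). The neighbourhoods were looked at after most of the genes most like Brd7 were seen to lie on its chromosome. These values are therefore given as a description only, and the permutation p-values computed for them are left out. Leaving out Arid1b-fl replicate 6 moved the Brd7 difference of Arid1b-fl from controls from 0.01 to 0.08, and leaving out hSS1 control replicate 4 moved that of hSS1 Pbrm1-fl from −0.14 to −0.29. Neither became a call.

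**Figure D5:**
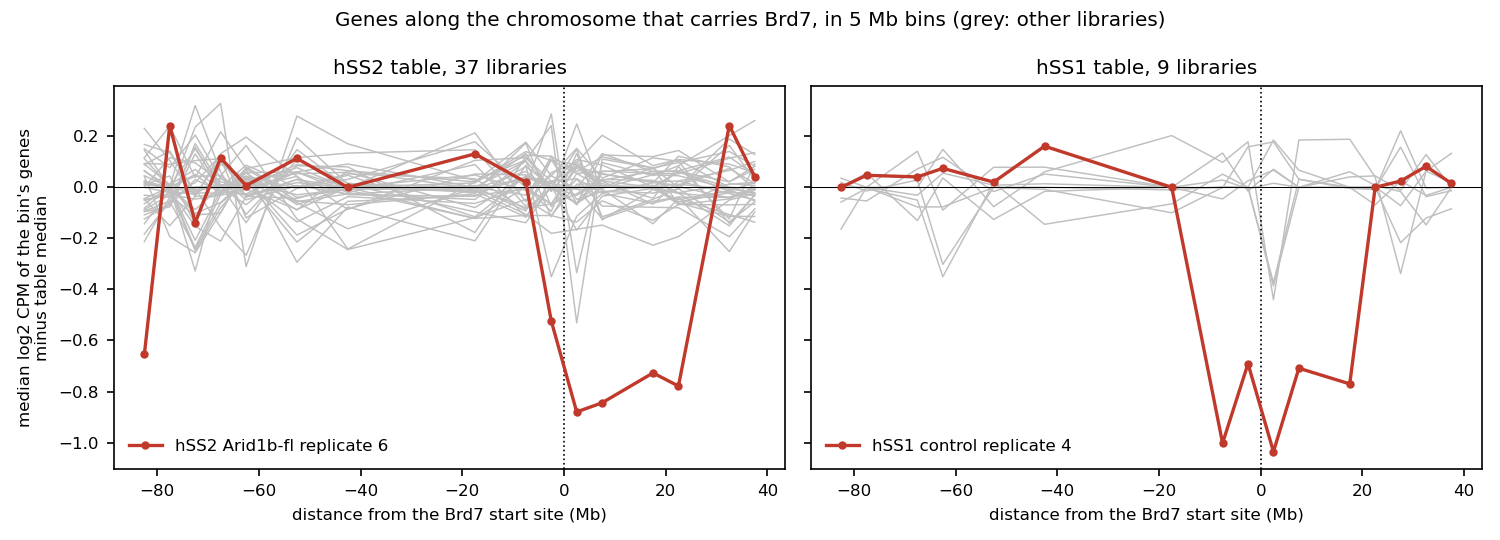
Median log2 CPM of protein-coding genes minus the table's median (y axis) in bins of 5 Mb by distance from the Brd7 start site (x axis, Mb, dotted line at Brd7), for the 37 hSS2 (left) and 9 hSS1 (right) libraries, leaving out bins of under 10 genes. The red lines, hSS2 Arid1b-fl replicate 6 and hSS1 control replicate 4, drop to −0.88 and −1.04 at 0 to 5 Mb and return among the grey lines of the other libraries at the edges of that stretch. The hSS2 red line is low again in a bin far to the left.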

How the data were processed

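Bulk RNA sequencing of mouse synovial sarcomas was analysed, 1 library per tumour. The values are whole-number read counts per Ensembl gene, unnormalised, which the authors deposited as 1 table for hSS2 (37 libraries) and 1 for hSS1 (9 libraries). Per the labels and the methods of the study, ribosomal RNA was depleted, stranded paired-end libraries were aligned with STAR 2.7.11 to mm10 and counted with featureCounts 1.6.3. The annotation release, the strand setting and the treatment of reads with several matches are not given in the sources used here. Symbols, lengths and positions came from GENCODE M21 (GRCm38), which matched 91.5% and 91.3% of the identifiers.

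Members were tested within the whole tables with edgeR 4.0.16 (R 4.3.3): filterByExpr on group, TMM scaling, robust quasi-likelihood F-tests, two-sided, with Benjamini-Hochberg adjustment over all genes and a threshold of 0.05. One model held all hSS2 libraries, another all hSS1 libraries, and the difference between backgrounds was fitted over both. The fits were tested on simulated counts drawn without admixture and without an effect of mouse number range, so that test does not cover these. Log2 CPM used a prior count of 2. Ratios were compared by exact permutation of the 2 groups, and correlations across hSS2 libraries by 100000 permutations within groups, in logs centred on the group mean. Under an alternative, the p of a ratio was adjusted beside the unchanged main p-values of the other ratio tests. Neighbourhood medians used protein-coding genes with a mean log2 CPM over 4.

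Groups came from the sample titles. Replicate numbers follow accession order and only name tumours. The study states that littermates served as controls, but the labels name no litter, so tumours of the same litter could not be matched. The p-values therefore measure the spread between these tumours. No libraries of a group agreed within counting noise (lowest chi-square per degree of freedom 18.6). Columns of no sample numbered 0. The named genes were the 4 members, the other BAF-family genes past the threshold or targeted, the neighbours of a called member, and the 5 genes most correlated with each member. The members and lists were chosen with earlier results of these data known. Alternatives were DESeq2 1.42.0, RLE scaling or library totals, raw counts or the longest transcript for ratios, no filter, only the groups compared, controls of the same mouse number range, muscle or proliferation covariates, a threshold of 0.01, and leaving out each library.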

Additional observations from a re-analysis of the deposited data

Results flagged for a closer look

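Within groups of 4 to 10 tumours, the gap of the highest or lowest tumour to its neighbour, relative to the range, was compared with Dixon's critical value for 50 combinations of group and measure. Chance flags about 1 in 20 such groups, and 11 stood apart. Several share a tumour and are not separate events.

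For levels, Pbrm1 in hSS2 Pbrm1-fl replicate 1 was high at 139 CPM against 95 to 110 CPM in the other 7, and its log2 ratio to Phf10 per length was also high at 0.60. Brd7 was low in hSS2 Arid1b-fl replicate 6 (40.9 CPM) and in hSS1 Pbrm1-fl replicate 3 (49.8 CPM).

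For ratios on the log2 scale per length, hSS2 Arid1b-fl replicate 6 had the lowest Brd7 to Brd9 (−0.083) and the highest Pbrm1 to Brd7 (2.25) of its group. In hSS1 control replicate 4 Brd7 to Brd9 was the lowest at −0.38, Pbrm1 to Brd7 the highest at 2.40, and in hSS1 control replicate 5 Pbrm1 to Phf10 was the highest at 1.97. In hSS1 Pbrm1-fl the lowest Pbrm1 to Arid2 was −1.07. In hSS2 Arid1a-fl the highest Arid2 to summed Arid1a and Arid1b was −1.05.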

How the results depend on the processing

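The 32 member tests gave 1328 values under the alternatives, of which 8 changed a call. The 3 called Pbrm1 differences kept their direction and call in all 138 of theirs. Pbrm1 in hSS2 Pbrm1-fl against controls ranged from −1.29 to −1.12 over settings and from −1.35 to −1.24 without each library. No paired analysis was possible because the replicate numbers follow accession order and the labels pair no tumours. DESeq2 raised Pbrm1 (0.241) and Brd7 (0.235) past the threshold in Arid1a-fl, and the muscle covariate did so for Arid2 in Pbrm1-fl (−0.35). Leaving out 1 library gave 0.21 to 0.27 and 0.20 to 0.28 for the first 2, and 0.38 to 0.74 for Pbrm1 in the difference between backgrounds.

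Small differences that passed no test changed sign. Phf10 in Arid1a-fl became 0.035 with library totals, 0.0035 without a filter and 0.0083 with only the groups compared (−0.051 to 0.047 without each library). Phf10 in Arid1b-fl became 0.0064 without a filter and 0.10 against the same range (−0.039 to 0.012). Between Arid1a-fl and Arid1b-fl it became 0.0058 with DESeq2, 0.0064 with RLE scaling, 0.089 with library totals and 0.014 with only the groups compared (−0.049 to 0.051). Arid2 between these groups became −0.35 in the same range, −0.017 with the muscle and −0.034 with the proliferation covariate (−0.052 to 0.078), and in Arid1b-fl 0.12 against the same range. Brd7 in Arid1b-fl became −0.051 with library totals (−0.040 to 0.083), and in Pbrm1-fl against Arid1b-fl it ran from −0.037 to 0.077 without each library.

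For ratios, controls of the same range gave 0.041 for Arid2 in hSS1 Pbrm1-fl (−0.086 to 0.0043 without each library), and for Phf10 to Dpf2 −0.38 in hSS2 Pbrm1-fl (−0.24 to −0.13), 0.035 in Arid1a-fl (−0.14 to 0.0082) and 0.040 in Arid1b-fl (−0.096 to 0.011). Without each library the Arid2 ratio in hSS2 Pbrm1-fl was −0.39 to −0.29, Brd7 to Brd9 in Arid1a-fl 0.26 to 0.37 and in hSS1 Pbrm1-fl −0.43 to 0.028. The Pbrm1 and Arid2 coefficient became 0.018 without 2 libraries. The causes were not tested.

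Counts over all genes moved more. In hSS2 Pbrm1-fl 1476 genes became 477 against the same range and 503 at a threshold of 0.01. In Arid1a-fl 637 became 1696 with DESeq2, 1405 against the same range, 243 without a filter, 159 with only the groups compared, 104 with the proliferation covariate and 26 at 0.01. In Arid1b-fl 11 became 27 without a filter, 3 with only the groups compared, 6 with either covariate or at 0.01 and 0 in the same range. In hSS1 1 became 1184 with DESeq2. Between backgrounds 622 became 1195 with DESeq2, 402 without a filter, 313 with the proliferation covariate, 61 at 0.01 and 6 in the same range. Pbrm1-fl against Arid1a-fl went from 2468 to 1041 at 0.01 and 436 in the same range, Pbrm1-fl against Arid1b-fl from 878 to 1426 with DESeq2, 527 with only the groups compared, 271 at 0.01 and 55 in the same range, and Arid1a-fl against Arid1b-fl from 20 to 215 with DESeq2, 39 with library totals, 12 with only the groups compared, 10 at 0.01 and 0 in the same range. Without each library the counts, in the order given here, were 1044 to 1920, 56 to 1416, 6 to 15, 0 to 4, 235 to 876, 1902 to 2646, 574 to 1249 and 15 to 76.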

Other observations

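Another low stretch lay on the chromosome of Pbrm1 in 1 control. In hSS2 control replicate 9 the bin medians were 0.06 at −5 to 0 Mb from the Pbrm1 start site, −0.21 at 0 to 5, −0.95 at 15 to 20, −0.94 at 20 to 25 and −0.60 at 90 to 95 Mb (log2 against the table's median). Pbrm1 itself, on the near side of that edge, was at 248 CPM in this tumour, against a control mean of 249.6 CPM. In hSS2 control replicate 1 the genes within 5 Mb of Arid2 stood at 133% and those within 5 Mb of Phf10 at 128% of the table's median, and Arid2 and Phf10 there were at 224 and 69.9 CPM, above the control medians of 186 and 65.0 CPM. These stretches were found after the values were seen and were not tested.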
